A study of Mus musculus with 4 samples.

Results

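Transcripts of 10 genes of the circadian clock and its PAR bZIP output were followed in mouse liver, on arrays of 4 groups. The genes are Arntl, Npas2, Per1, Per2, Cry1, Nr1d1, Ciart, Dbp, Nfil3 and Hlf. They were taken by name, as every probe set whose only gene symbol in the platform annotation was one of these, which gave 16 probe sets of 45037, or 10 genes of 18193 named. Each group had 1 Affymetrix 3' expression array of liver RNA from male mice. The groups were wild type on chow (WT chow), LASS2-/- on chow, wild type on a high-fat diet (WT HFD) and LASS2-/- on the high-fat diet. LASS2 is an older symbol for CERS2, which makes very-long-chain ceramides. The chow held 10% and the high-fat diet 60% of calories as fat, and both were given from 3 weeks of age. All mice lived under a light and dark cycle of 12 h each with food and water at will, per the labels' protocols. The labels name neither the allele, the strain or the age of the mice at collection, nor whether an array held 1 mouse or a pool. They also do not give the hour of the day at which livers were taken. As each group had 1 array, the hour of collection and the group cannot be told apart in these data.

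The molecular clock is a feedback loop of transcription. ARNTL (BMAL1) pairs with CLOCK or NPAS2 and activates genes that carry E-box elements, among them Per1, Per2, Cry1, Nr1d1, Ciart and Dbp, whose products other than DBP repress the loop. REV-ERB-alpha, the product of Nr1d1, represses Arntl, Npas2, Cry1 and Nfil3 through RORE elements. DBP and HLF are PAR bZIP activators, NFIL3 (E4BP4) is a repressor, and all of them bind D-box elements of metabolic and detoxification genes. In mouse liver, Arntl and Nfil3 transcripts are known to peak at a time of day when Dbp and Nr1d1 are low.

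Promoter windows of the members are shown first, with matches to the elements named above. Elements outside these windows were not searched for. Windows ran from 250 bases before to 50 bases after the annotated start (RefSeq, build GRCm38.p6), and 9 of the 10 members had at least 1, with 11 windows in all. Both strands were searched for the E-box CACGTG, the D-box TTATGTAA or TTACGTAA and the RORE core TAGGTCA or TGGGTCA, and no matches overlapped. The E-box was in 3 of the 11 windows, against 7.15% of all 32851 windows in the table. The RORE core was in 2, against 6.45%, and the D-box in 0, against 1.06%. Such a match is a description of the letters and does not show a bound site.

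The windows below carry matches in members that passed the test for diet, with the matched letters in capitals, 5′ to 3′ on the gene's strand. Dbp and Hlf also passed, with no match in their windows, and Per1 had a match and did not pass. A link between matches and diet was not tested. Ciart lies at chr3:95882179-95882478 on the minus strand and held 3 E-boxes, a number reached by 0.0883% of all windows. Cry1 lies at chr10:85185005-85185304 on the minus strand and held 1 E-box. The second annotated start of Arntl lies at chr7:113207261-113207560 on the plus strand and its window held 1 RORE core. Nfil3 lies at chr13:52980990-52981289 on the minus strand and held 1 RORE core, on the opposite strand.
Ciart: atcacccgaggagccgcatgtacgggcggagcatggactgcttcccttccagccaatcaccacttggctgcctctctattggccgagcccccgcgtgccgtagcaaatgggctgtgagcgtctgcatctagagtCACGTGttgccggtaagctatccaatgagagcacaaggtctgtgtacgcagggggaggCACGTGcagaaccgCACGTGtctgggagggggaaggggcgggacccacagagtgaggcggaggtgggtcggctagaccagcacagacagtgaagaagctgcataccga
Cry1: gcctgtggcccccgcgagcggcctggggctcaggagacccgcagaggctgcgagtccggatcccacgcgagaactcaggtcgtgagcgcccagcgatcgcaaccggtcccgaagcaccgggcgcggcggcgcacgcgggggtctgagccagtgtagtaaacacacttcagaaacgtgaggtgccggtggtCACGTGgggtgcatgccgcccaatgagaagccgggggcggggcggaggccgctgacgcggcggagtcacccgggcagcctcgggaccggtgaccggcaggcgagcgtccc
Arntl: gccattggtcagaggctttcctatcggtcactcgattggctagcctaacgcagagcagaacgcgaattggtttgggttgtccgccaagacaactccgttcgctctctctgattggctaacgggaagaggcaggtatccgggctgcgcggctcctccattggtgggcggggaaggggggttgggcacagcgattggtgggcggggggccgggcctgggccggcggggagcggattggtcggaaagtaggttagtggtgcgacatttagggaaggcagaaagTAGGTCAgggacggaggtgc
Nfil3: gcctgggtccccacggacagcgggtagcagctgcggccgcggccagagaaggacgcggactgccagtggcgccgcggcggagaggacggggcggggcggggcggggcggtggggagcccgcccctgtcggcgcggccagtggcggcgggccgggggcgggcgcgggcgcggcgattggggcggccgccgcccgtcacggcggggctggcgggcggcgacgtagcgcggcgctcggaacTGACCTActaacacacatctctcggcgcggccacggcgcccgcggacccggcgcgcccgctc

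Counted from the start as position 0, the E-boxes of Ciart began at positions -116, -58 and -44 and that of Cry1 at -60. The RORE core of Nfil3 began at position -12, and that of Arntl at 30 from its second start. Per1 had an E-box at position -166 from the first of its annotated starts. The windows of Npas2, Nr1d1, Dbp and Hlf had no match to these letters.

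**Figure D1:**
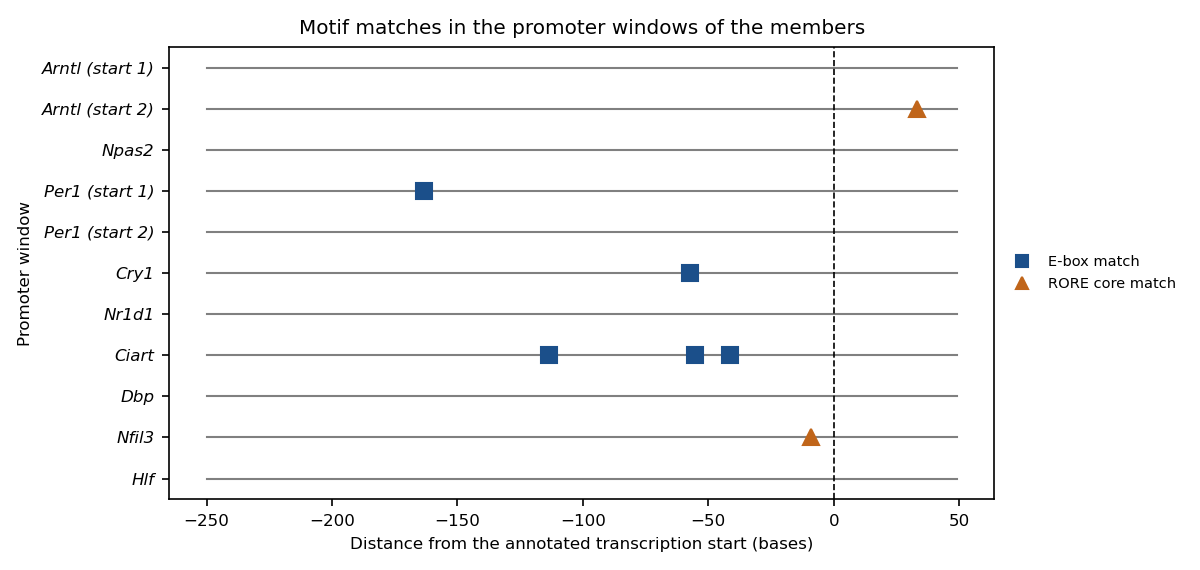
Matches to the E-box (squares) and to the RORE core (triangles) in the 11 promoter windows of the clock and PAR bZIP genes, by distance in bases from the annotated start (dashed line). Ciart has 3 E-boxes, the farthest at position -116, Per1 and Cry1 have 1 each, and Arntl (start 2) and Nfil3 have 1 RORE core each.

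Values are log2 signals as deposited, where a difference of 1 is a 2-fold change. A signal was treated as measured when it reached the median of its array, which was 6.17, 6.28, 6.19 and 6.19 on WT chow, LASS2-/- chow, WT HFD and LASS2-/- HFD. Of the 16 probe sets, 11 were measured on all 4 arrays and 13 on at least 1. A gene is given by its brightest such probe set, and 9 of the 10 members entered the fit, among 12493 genes. Signals of different probe sets have no common scale, so levels are compared within a probe set only. The targeted gene, Cers2, had 12.46, 12.32, 12.25 and 12.32 in the same order of arrays. It was not lower on both arrays labelled LASS2-/-, so the genotype is given here as the label states it. Which part of the gene was deleted, and whether this probe set lies in it, is not given. Of 5 hepatocyte markers that entered, Hnf4a and Cps1 fell with the high-fat diet, and the summed linear signal of all 5 lay between 164795 and 201015. Of 6 macrophage markers, Marco and Lyz2 rose with the LASS2-/- label and Lyz2 also with diet, and their summed signal was 11342 and 11725 on the wild type arrays against 14560 and 18272 on those labelled LASS2-/-. The summed signal of the lymphocyte markers Ighm and Ptprc was 6396 on WT HFD against 2759 to 3486 on the other arrays, and Cd3e and Cd79a were under the median on every array. The part of these cells in the results below was not tested. In liver RNA, fewer cells of a type and less RNA per cell cannot be told apart.

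With the high-fat diet, Dbp, Hlf and Ciart rose and Nfil3, Arntl and Cry1 fell. These are 6 of the 9 members that entered, while 11.3% of all genes passed the same test, 6.26% as higher and 5.04% as lower. The members were chosen with earlier results of these data known, so the comparison of these shares is not an independent test. The test for each gene was limma's additive model of diet and genotype over all genes, with Benjamini-Hochberg adjusted p below 0.05. On simulated data, false calls made up a larger share of its calls than this threshold allows. The model has 1 residual degree of freedom, which is the difference between the diet ratios of the genotypes, and its error is drawn mainly from genes of like signal. Standard errors after ± are these moderated ones, and no group has a spread between animals. The calls need the trend of the error with signal: without it limma called 0 of 12493 genes at adjusted p below 0.05, and 1783 genes, 4 of them members, had an unadjusted p below 0.05. Among the called members, Dbp, Hlf and Nfil3 also passed under each of the other 7 settings tried. Of all 8 other settings, the one without the trend included, Cry1 passed in 6, Arntl in 2 and Ciart in 1. After equal scaling of medians 2 members rose (Dbp and Hlf) and 1 fell (Nfil3). At least 2-fold apart with diet were 3 members in wild type (Arntl, Ciart and Nfil3; 3.37% of all genes) and 0 in LASS2-/- (5.0% of all genes). Hence 0 members were 2-fold apart in the same direction in both genotypes, where 1.5% of all genes were.

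**Figure D2:**
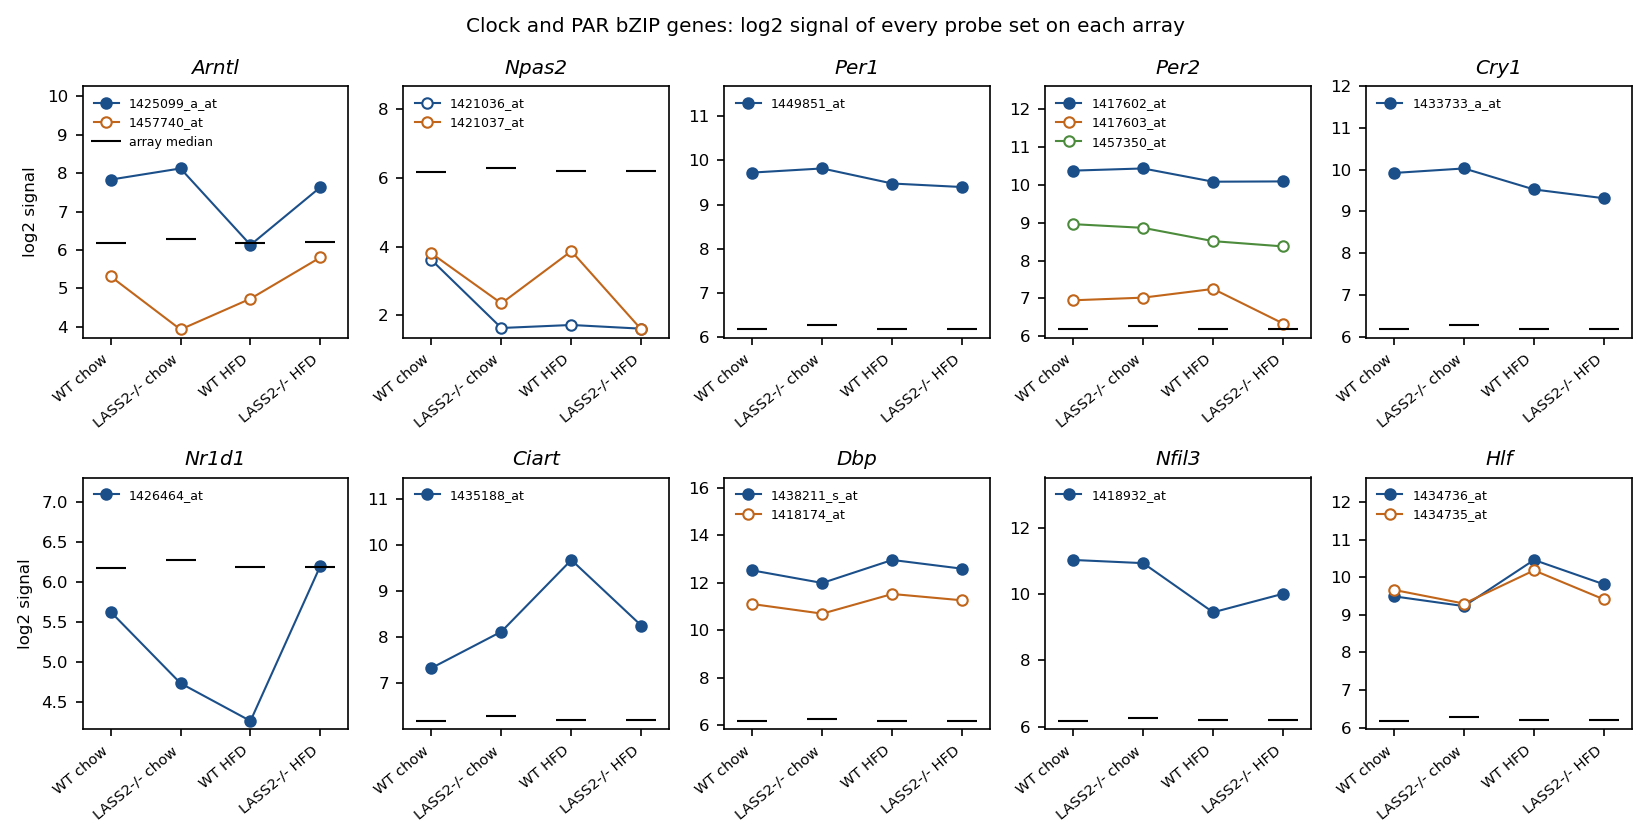
Log2 signal of all 16 probe sets of the 10 genes on the 4 arrays, 1 panel per gene, with filled points for the probe set that stands for the gene and black bars at each array's median signal. Each point is 1 array, and vertical scales differ between panels. Ciart is highest (9.67) and Arntl (6.13) and Nfil3 (9.45) are lowest on WT HFD, and both probe sets of Npas2 lie under the medians throughout.

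The activator Arntl, on chromosome 7, had 7.83 on WT chow, 8.12 on LASS2-/- chow, 6.13 on WT HFD and 7.64 on LASS2-/- HFD. The value on WT HFD stood apart at the bottom, under the median of that array, and the chow arrays were both above the high-fat arrays. Arntl was therefore at least 3.11-fold lower on the high-fat diet in wild type, and 1.40-fold lower for LASS2-/-. The mean change of Arntl was -1.09 ± 0.32 log2 (limma adjusted p = 0.0435). That call was lost under 6 of the 8 other settings, whose limma adjusted p ran from 0.0394 to 0.377. Without either wild type array, the diet ratio that remains for Arntl is the -0.49 log2 of LASS2-/-. The other probe set of Arntl was under the median on every array, with 5.31, 3.93, 4.73 and 5.81, and gave no ratio. Npas2, which can take the place of CLOCK beside ARNTL, was under the median on every array with both probe sets, between 1.59 and 3.87. Npas2 thus had no measured change and did not enter the fit.

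Among the repressors, Cry1 fell and neither Per1 nor Per2 passed. Per1, on chromosome 11, had 9.72 and 9.82 on the chow arrays (wild type first, as in the pairs below) and 9.47 and 9.40 on the high-fat arrays. Its mean change of -0.33 ± 0.14 did not pass (limma adjusted p = 0.167). Per2, on chromosome 1, had 10.38 and 10.44 on chow and 10.09 and 10.10 on the high-fat diet, a mean of -0.32 ± 0.12 that did not pass either (limma adjusted p = 0.127). In both genes, by the brightest probe set, the chow arrays were above the high-fat arrays without overlap. The share of all genes with the diets so separated was not counted. The exact order of arrays in Per1 was that of 6.49% of all genes, and the order in Per2 that of 7.46%. The ratios were -0.25 in wild type and -0.42 in LASS2-/- for Per1, and -0.29 and -0.34 for Per2. The second Per2 probe set went the same way, with 8.96 and 8.87 on chow and 8.51 and 8.37 on the high-fat diet. The dimmest one did not, with 6.95 and 7.02 on chow against 7.25 and 6.33.

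Cry1, on chromosome 10, had 9.92 and 10.03 on chow and 9.53 and 9.32 on the high-fat diet. It fell by 0.55 ± 0.14 (limma adjusted p = 0.0236), 1.31-fold in wild type and 1.64-fold in LASS2-/-. Equal array medians ended the Cry1 call (limma adjusted p = 0.0803), and the other settings ran from 0.0202 to 0.346. Nr1d1, on chromosome 11, encodes REV-ERB-alpha and was measured on LASS2-/- HFD only, where its 6.21 was just above the median. Its signals on the other arrays were 5.63, 4.74 and 4.27, all under the median, and its model estimate of 0.05 ± 1.12 log2 (limma adjusted p = 0.983) carries no information on its direction. This lone probe set entered through that 1 array, so the clock's main repressor of Arntl was in effect not measured.

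Ciart, on chromosome 3, encodes CHRONO, a repressor of CLOCK-BMAL1, and had the widest range of the members measured on all arrays. It had 7.32 on WT chow, 8.11 on LASS2-/- chow, 9.67 on WT HFD and 8.24 on LASS2-/- HFD. WT HFD was the high array and WT chow the low one, with the LASS2-/- arrays between them and close together. With the high-fat diet the signal was 5.08-fold higher between the wild type arrays and 1.09-fold higher between the LASS2-/- arrays. The mean of 1.24 ± 0.36 passed (limma adjusted p = 0.0388), but it rests on the wild type pair: without either of those arrays the diet ratio that remains is the 0.13 log2 of LASS2-/-. It lost the call under 7 of the 8 other settings, and over all 8 the limma adjusted p ran from 0.0304 to 0.566, the latter under robust moderation.

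The PAR bZIP activators Dbp and Hlf were higher on the high-fat diet in each genotype. Dbp, on chromosome 7, had 12.52 and 11.99 on chow and 12.96 and 12.59 on the high-fat diet, and its other probe set had 11.10 and 10.70, then 11.52 and 11.26. Both probe sets ranked the arrays alike, from WT HFD down through LASS2-/- HFD and WT chow to LASS2-/- chow. On the brighter probe set WT chow and LASS2-/- HFD were neighbours that differed by less than the residual SD of genes of like signal, 0.128 log2. Dbp rose by 0.52 ± 0.09 (limma adjusted p = 0.00202), 1.36-fold in wild type and 1.52-fold in LASS2-/-.

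Hlf, on chromosome 11, had 9.49 and 9.23 on chow and 10.46 and 9.81 on the high-fat diet, the same order of arrays as Dbp. It rose by 0.77 ± 0.15 (limma adjusted p = 0.00312), 1.96-fold in wild type and 1.49-fold in LASS2-/-. The other Hlf probe set was higher by 0.52 in wild type and by 0.11 in LASS2-/-. It had 9.66 and 9.30 on chow and 10.18 and 9.41 on the high-fat diet. In that probe set WT chow thus lay above LASS2-/- HFD, unlike in Dbp and in the brighter Hlf probe set.

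Nfil3, the D-box repressor on chromosome 13, moved against Dbp and Hlf. It had 11.03 and 10.93 on chow and 9.45 and 10.01 on the high-fat diet, so the chow arrays were alike and both high-fat arrays were lower. Nfil3 fell by 1.25 ± 0.15 (limma adjusted p = 7.8e-05), 2.99-fold in wild type and 1.90-fold in LASS2-/-. It was more than 1.5-fold apart with diet in both genotypes, which Hlf also was after scaling to equal medians (0.95 and 0.66 log2).

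**Figure D3:**
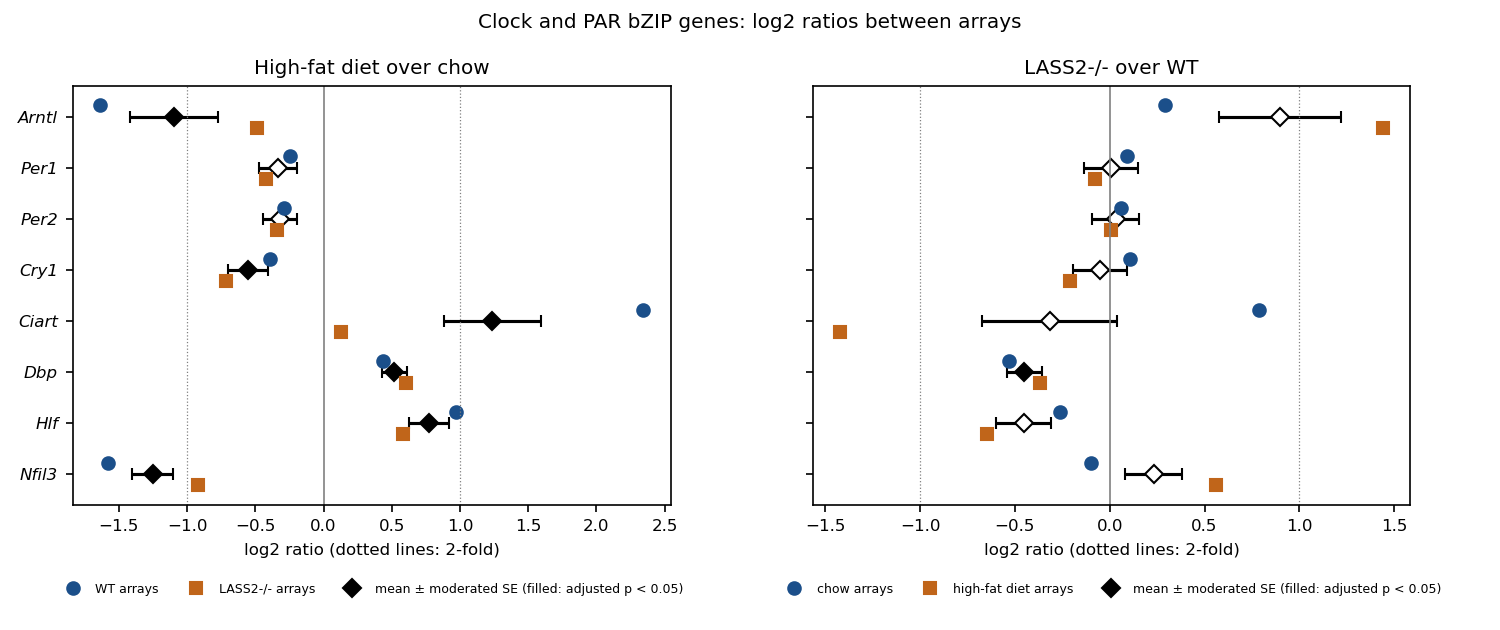
Log2 ratios of 8 members between arrays (circles and squares, 1 pair of arrays each) with the model mean and its moderated standard error (diamonds, filled where the adjusted p is below 0.05), for diet on the left and genotype on the right. Npas2 and Nr1d1 are left out as not measured on most arrays, and the Arntl ratios that use WT HFD are lower bounds. Diet ratios keep their sign in both genotypes for the 8 shown, and the share of all genes that do so was not counted. The widest genotype ratios, of Arntl (1.44) and Ciart (-1.42), are on the high-fat diet.

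With the LASS2-/- label, 1 of the 9 members passed limma, against 0.913% of all genes (0.56% higher and 0.352% lower). Dbp fell by 0.45 ± 0.09 (limma adjusted p = 0.037), with log2 ratios of -0.53 on chow and -0.37 on the high-fat diet. Its other probe set had -0.40 and -0.27, and with probe sets ending in _s_at left out, which puts that one in its place, limma gave adjusted p = 0.230. The call was lost under 6 of the 8 other settings, over which the limma adjusted p ran from 0.0305 to 0.742. Hlf had ratios of -0.26 and -0.65, both lower, and a mean of -0.45 ± 0.15 that did not pass (limma adjusted p = 0.233).

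On chow 0 members were 2-fold apart between the genotypes (1.58% of all genes) and on the high-fat diet 2 were (1.96% of all genes). On both diets in the same direction there were 0, against 0.128% of all genes. The 2 were Arntl, at least 2.72-fold higher on the LASS2-/- array than on the wild type array of the high-fat diet, and Ciart, 2.68-fold lower. On chow Arntl was 1.22-fold higher and Ciart 1.73-fold higher on the LASS2-/- array. The mean change with the label was 0.90 ± 0.32 for Arntl (limma adjusted p = 0.301) and -0.32 ± 0.36 for Ciart (limma adjusted p = 0.848).

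Per1 and Per2 had genotype ratios of 0.09 and 0.06 on chow, which turned to -0.01 and -0.05 after scaling to equal medians. On the high-fat diet they had -0.08 and 0.01, and the latter turned to -0.01 under quantile normalization and to -0.35 with the mean of the Per2 probe sets. Scaling to equal medians moved the median chow genotype ratio of all genes from 0.03 to -0.07. Cry1 had 0.11 and -0.21, and Nfil3 -0.10 and 0.56.

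The diet ratios of the genotypes were at least 2-fold apart from each other in 2 members, Arntl and Ciart, and in 4.31% of all genes. The difference of diet ratios has no test with 1 array per group, and WT HFD was the lowest of the 4 arrays for Arntl and the highest for Ciart. It was also the array with the highest summed lymphocyte marker signal, whose part was not tested. The diet ratio of Nfil3 was also further from 0 in wild type (-1.58) than in LASS2-/- (-0.92). Those of Dbp (0.44 and 0.60) and Cry1 (-0.39 and -0.71) were further from 0 in LASS2-/-.

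Of 18 other genes of the clock loop, 14 entered. Of these, 0 passed limma for diet (11.3% of all genes) or for genotype (0.913% of all genes). None of Clock, Per3, Cry2 and Nr1d2 reached the 2-fold mark in any ratio. Nr1d2, the gene of REV-ERB-beta, had 13.07 and 12.97 on chow and 13.02 and 12.96 on the high-fat diet. Tef, the remaining PAR bZIP activator, had 12.10 and 12.02 on chow and 12.17 and 11.94 on the high-fat diet, a mean change of -0.01 ± 0.10 (limma adjusted p = 0.976), where Dbp and Hlf rose. Clock, the partner of ARNTL, had 9.60 and 9.62 on chow and 9.23 and 9.50 on the high-fat diet (mean change -0.24 ± 0.15, limma adjusted p = 0.361). Fbxw11, a ubiquitin ligase subunit that targets period proteins, had a mean diet change of 0.05. The median diet change of the 14 was -0.04 log2 and that of all genes 0.02. Rora, an activator at RORE elements, had -0.32 ± 0.11 (limma adjusted p = 0.0677) and passed once values were floored at the array medians (limma adjusted p = 0.0472).

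Genes that the clock factors are known to regulate were taken from lists named in the processing summary. These lists, and that of the other clock loop genes, were chosen with earlier results of these data known. Of 6 measured REV-ERB and ROR targets, 3 rose and 1 fell with diet, and 0 passed for genotype. Of all genes, 6.26% rose and 5.04% fell with diet, and 0.913% passed for genotype. The median diet change of the 6 was 0.24. Insig2, which retains the SREBP escort protein in the endoplasmic reticulum, had 11.71 and 12.07 on chow and 12.78 and 12.77 on the high-fat diet and rose by 0.89 ± 0.10. Cyp8b1, the sterol 12-hydroxylase of cholic acid synthesis, rose by 1.74 ± 0.10 and Elovl3, a fatty acid elongase, by 0.60 ± 0.10. G6pc, glucose-6-phosphatase, fell by 0.74 ± 0.16, with ratios of -0.23 in wild type and -1.25 in LASS2-/-, and did not pass under robust moderation. Avpr1a, a vasopressin receptor, and Apoc3, an apolipoprotein, had -0.31 and -0.12 and did not pass.

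Of 6 measured targets of the PAR bZIP factors, 3 rose (6.26% of all genes) and 1 fell (5.04%) with diet and 2 fell with the LASS2-/- label (0.352%). The median diet change of the 6 was 0.57, against 0.02 over all genes. Their median genotype change was -0.29, and -0.04 with values floored at the array medians, which bears on the unmeasured chow signals of Cyp2b10. Cyp7a1, the rate-limiting enzyme of bile acid synthesis, had 11.32 and 11.38 on chow and 12.49 and 12.99 on the high-fat diet and rose by 1.39 ± 0.11. Cyp2b10, a drug-inducible cytochrome P450, was under the median on both chow arrays and had 8.25 and 8.04 on the high-fat diet, which is higher by at least 2.08 and 1.76 on the log2 scale. Nr1i3, the gene of the xenobiotic receptor CAR, had 10.81 and 10.31 on chow and 11.46 and 10.83 on the high-fat diet. Nr1i3 rose by 0.59 ± 0.11 with diet (limma adjusted p = 0.00358) and fell by 0.57 ± 0.11 with the label (limma adjusted p = 0.0338). Ces2a, a carboxylesterase, fell with both, by 0.88 ± 0.10 with diet and by 0.61 ± 0.10 with the label (limma adjusted p = 0.00668 for the label). The genotype calls of both were lost under quantile normalization, and that of Nr1i3 under 4 further settings. Fgf21, a fasting hormone of liver that NFIL3 can repress, had 7.44 on WT chow and between 8.52 and 8.78 on the other arrays, and Alas1, the first enzyme of heme synthesis, between 14.22 and 14.50, and neither passed.

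Of 14 measured clock-controlled genes, 2 rose (6.26% of all genes) and 5 fell (5.04%) with diet and 2 fell with the label (0.352%). Rgs16, a regulator of G protein signalling with a strong daily rhythm in liver, had 12.05 and 11.34 on chow and 13.34 and 12.66 on the high-fat diet. Rgs16 rose by 1.30 ± 0.09 with diet (limma adjusted p = 6.76e-07) and fell by 0.70 ± 0.09 with the label (limma adjusted p = 0.0026), and the latter was the only genotype call of these lists lost solely without the trend. Wee1, a kinase that restrains entry into mitosis, rose by 0.52 ± 0.13. Nampt, the enzyme of NAD salvage, fell by 0.53 ± 0.10, Coq10b, a coenzyme Q binding protein, by 0.82 ± 0.10, Tspan4, a tetraspanin, by 0.66 ± 0.10, Tars, threonyl-tRNA synthetase, by 0.63 ± 0.10, and Lonrf3 by 0.63 ± 0.15. Slc45a3, a sugar transporter, had 9.45 and 9.76 on the wild type arrays and 8.56 and 8.79 on those labelled LASS2-/-, and fell by 0.93 ± 0.16 with the label (limma adjusted p = 0.012), a call lost under quantile normalization and equal medians. Wee1 lost its call with the mean of its probe sets, and Lonrf3 lost its call so and with equal medians. Upp2, Gys2 and Pck1 had mean diet changes of 0.01, -0.19 and -0.31 and did not pass.

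Of 8 measured genes that follow body temperature or glucocorticoids, 2 rose (6.26% of all genes) and 3 fell (5.04%) with diet and 1 fell with the label (0.352%). Cirbp, a cold-inducible RNA-binding protein, rose by 0.83 ± 0.23, while the heat shock genes Hspa1b, Hsp90aa1 and Hspa8 fell by 0.77 ± 0.11, 0.53 ± 0.09 and 0.30 ± 0.07. Cirbp lost the call under 5 of the 8 other settings and Hspa8 under 4. Tsc22d3, the glucocorticoid-induced leucine zipper gene, had 12.50 and 12.16 on chow and 13.31 and 12.73 on the high-fat diet. It rose by 0.69 ± 0.09 with diet (limma adjusted p = 0.000223) and fell by 0.47 ± 0.09 with the label (limma adjusted p = 0.0338), a call lost under 5 of the 8 other settings. Its diet call was lost with the mean of its probe sets and without the trend. The other glucocorticoid-responsive genes Fkbp5, Sgk1 and Tat had diet changes of 0.15, 0.25 and -0.07 and did not pass.

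**Figure D4:**
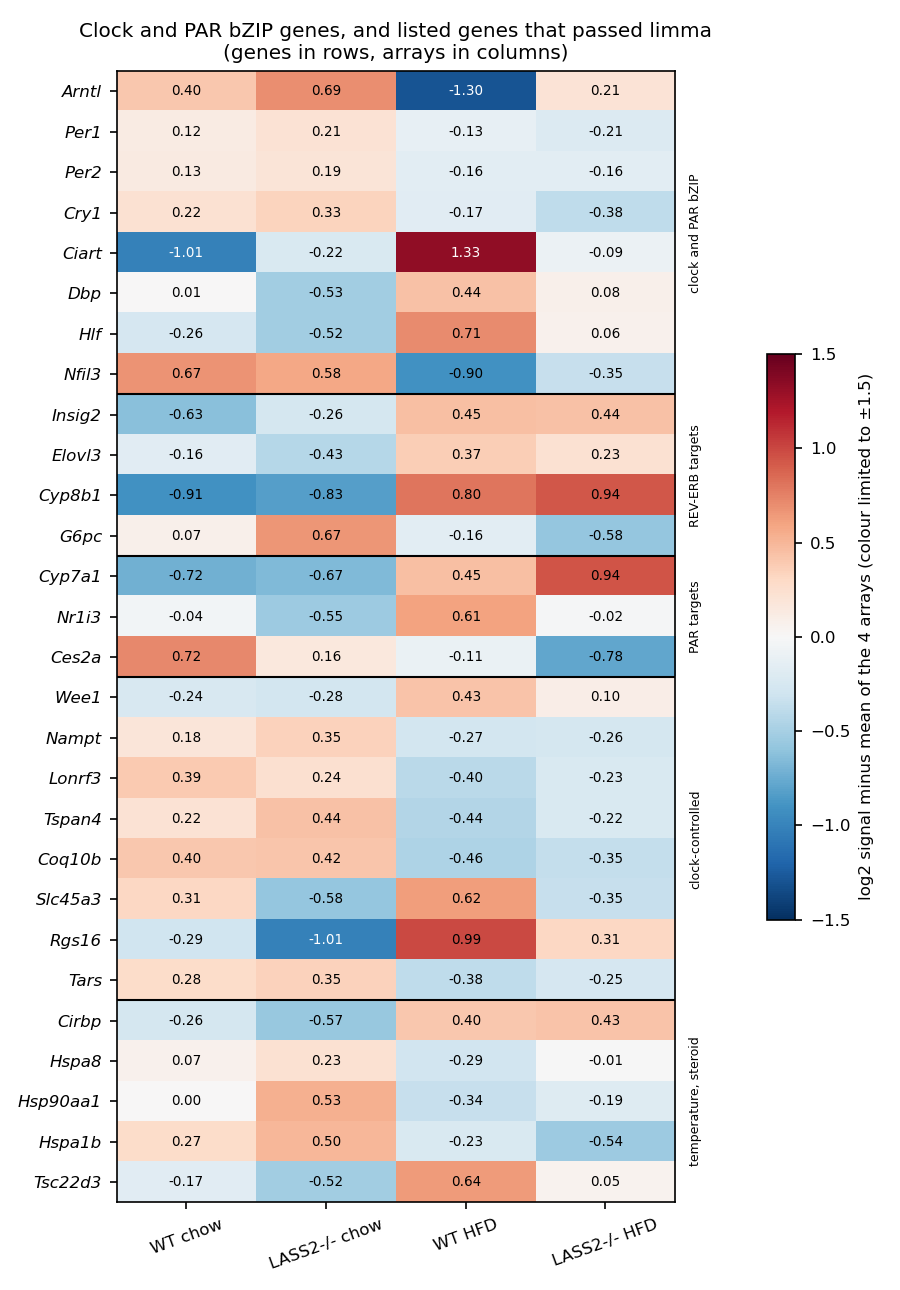
Log2 signal minus the mean of the 4 arrays for 8 members and for the listed genes that passed limma for diet or genotype, with arrays in columns and the value printed in each cell. Nr1d1 and Cyp2b10 are left out, as they were under the array median on several arrays. Dbp, Hlf (by its brighter probe set), Elovl3, Nr1i3, Wee1, Rgs16 and Tsc22d3 share the order WT HFD, LASS2-/- HFD, WT chow, LASS2-/- chow.

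Over these lists, 48 of 59 genes entered, 10 rose and 10 fell with diet (together 11.3% of all genes), and 0 rose and 5 fell with the label (together 0.913% of all genes). The order of the arrays seen in Dbp and in the brighter Hlf probe set was that of 7.95% of all genes. It was also that of 6 of the 48: Elovl3, Cyp2b10, Nr1i3, Wee1, Rgs16 and Tsc22d3. The other Hlf probe set had a different order. In Cyp2b10 the chow arrays were under the median, so their order is not measured. Arntl and Per2 had LASS2-/- chow, WT chow, LASS2-/- HFD, WT HFD from high to low, as did 7.46% of all genes. Per1 and Cry1 had the same with the high-fat arrays exchanged (6.49% of all genes), and Nfil3 had the chow arrays exchanged (4.29%). Ciart ran from WT HFD through LASS2-/- HFD and LASS2-/- chow to WT chow (4.73%). Between neighbours in these orders, the chow arrays of Per1, Per2, Cry1 and Nfil3 and the high-fat arrays of Per1 and Per2 differed by less than the residual SD of genes of like signal, 0.184 log2. The LASS2-/- arrays of Ciart differed by less than 0.274, the residual SD of its signal class.

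Likeness of pattern was measured as the Euclidean distance between log2 values centred on each gene's mean over the 4 arrays, among 11909 other named genes. Nearest to Dbp were Hmcn1 (distance 0.07), Mast3 (0.09), Ppp1r3b (0.09), Lima1 (0.09) and Stard3 (0.09). Ppp1r3b, a glycogen-targeting phosphatase subunit and the brightest of them, had 12.69 and 12.08 on chow and 13.02 and 12.65 on the high-fat diet. Nearest to Arntl were Hoxc6 (0.09), Elf4 (0.28), Muc20 (0.33), Pla2g4e (0.35) and Lyl1 (0.36). Each of these 5 was under the array median on WT HFD, where their signals were between 4.13 and 5.28. Elf4 and Pla2g4e were also under it on WT chow, and Hoxc6, Muc20 and Pla2g4e on LASS2-/- HFD. Their likeness to Arntl thus rests in part on signals that were not measured. With 4 values per gene, likeness is a description of these arrays only.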

How the data were processed

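Liver RNA of 4 groups was measured on 1 array each. The authors deposited a log2 signal for each probe set on each array, made with MAS5 per the submitters' processing notes. The sources used here do not give its version or scaling target, and detection calls were not used here. MAS5 scaling had given the arrays equal trimmed means (496.0 to 496.2 on the linear scale), and no further scaling was applied. MAS5 signals of dim probe sets vary widely: the residual SD was 0.800 log2 in the dimmest of 4 signal classes of genes and 0.128 in the brightest.

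Of 45037 probe sets, 34945 had a single symbol, and 0 of these needed renaming through Entrez gene. Probe sets at or above the median of 1 or more arrays were kept, and a gene was its brightest kept probe set. Ratios were floored at the array medians, and a ratio with an array under its floor is a bound. Mean effects were fitted with limma 3.58.1 (R 4.3.3) by an additive model with 3 coefficients, a trend in signal (prior of 12.7 degrees of freedom) and Benjamini-Hochberg adjustment over 12493 genes. The fit was tested on simulated data, where false calls made up a larger share of calls than the threshold allows. The number of arrays and, for dim probe sets, the signal limit precision. Python 3.11.15 did the rest.

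The lists held 18 other clock loop genes, 7 REV-ERB and ROR targets, 9 PAR bZIP targets, 15 clock-controlled genes and 10 genes that follow body temperature or glucocorticoids. All members, list genes that passed, up to 3 brighter others per list and the 5 genes nearest in pattern to Arntl and to Dbp were named; Clock, Per3, Cry2 and Rora were added after their values were seen. The members and lists were chosen with earlier results of these data known. Marker lists for 6 cell types were checked: besides those in the report, 1 of 4 endothelial markers (Cdh5) and 1 of 2 lymphocyte markers (Ptprc) rose with diet, 1 of 4 stellate markers (Des) fell, and 0 of 3 cholangiocyte markers passed. Alternatives covered normalization, filter, probe sets, moderation, floor and threshold.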

Additional observations from a re-analysis of the deposited data

Results flagged for a closer look

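In 4 members the genotype ratios on chow and on the high-fat diet had opposite signs. This difference was not tested, since each ratio rests on 1 pair of arrays. The share of all genes with opposite signs was not counted, so the 4 are given as values only. Ciart had log2 ratios of 0.79 on chow and -1.42 on the high-fat diet, a difference of -2.21. Nfil3 had -0.10 and 0.56, a difference of 0.66. Cry1 had 0.11 and -0.21, a difference of -0.32. Per1 had 0.09 and -0.08, a difference of -0.17, and its chow ratio turned to -0.01 with arrays scaled to equal medians. Both Per1 ratios were smaller in size than the residual SD of genes of like signal, 0.184 log2.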

How the results depend on the processing

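Of the 9 members, 6 passed limma for diet. Without _x_at and _s_at probe sets 6 also passed, and 5 with values floored at the array median. Under quantile normalization, no filter on signal, the mean of kept probe sets and robust moderation, 4 passed each. With arrays scaled to equal medians 3 passed (Dbp, Nfil3 and Hlf), and without the trend 0. For genotype 1 passed, and 0 did under quantile normalization, equal medians, no filter on signal, the mean of kept probe sets, no _x_at or _s_at probe sets, or no trend. Of the other clock genes, 1 (Rora) passed for diet with values floored at the array median. With a threshold of 1.5-fold, 1 member (Nfil3) was apart with diet in both genotypes. The share of all genes at that threshold was not counted. Over all genes, 1412 passed for diet and 114 for genotype; with equal medians it was 898 and 22, without the trend 0 and 0. The genotype count was 23 under quantile normalization, 52 without the filter and 63 with the mean of kept probe sets. The other 36 recounts of members and lists, which include the diet counts of 4 and 5, stayed within 1.5 times the original count. Most of the 36 were counts of 0 that stayed 0. The causes of the shifts in counts were not tested. The sign turned in small, uncalled changes: Nr1d1 for diet with floored values (-0.027), Per1 for genotype under quantile normalization (-0.013) and equal medians (-0.046), and Per2 for genotype under equal medians (-0.020) and the mean of its probe sets (-0.17). Robust moderation, no trend and floored values were added for single members after the data were seen. With 1 array per group, leaving out an array leaves no residual degree of freedom and so no test. No paired analysis was possible because each group has 1 array.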
